A study of Macaca fascicularis with 38 samples.

Results

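The NMDA receptor subunit genes studied here in prefrontal area 46 of cynomolgus macaques (Macaca fascicularis) were GRIN1, GRIN2A, GRIN2B, GRIN2C, GRIN2D and GRIN3A. They were taken by gene symbol from the table of all genes queried, which makes 6 of 29958 genes, and all 6 passed the filter of a mean of at least 1 TPM (transcript abundance per length, scaled to the same total in every library) that left 15324 genes for testing. GRIN3B, a further subunit gene, was also in the table, at 0.0343 to 1.48 TPM, and was not among the genes studied. RNA sequencing was done on biopsies of the same animals, a first biopsy before and a second after a period of chronic voluntary ethanol drinking, called before and after here. The table holds both biopsies of 16 animals of 2 cohorts, named 9 and 13. By the marks in its header each cohort has 5 drinkers and 3 controls, 10 and 6 animals in all. The sample labels know only before and after ethanol, so that in controls these words stand for the first and second biopsy. Animals are numbered within each set in the order of their numbers in the labels. The second biopsies of 6 further animals were not analysed here. The labels state no age, sex, amounts drunk or interval between biopsies. The libraries carry no strand information, so reads from a gene and from an overlapping antisense gene cannot be told apart.

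NMDA receptors are glutamate-gated cation channels that need glycine or D-serine as a co-agonist and pass calcium once depolarization lifts a magnesium block. Each receptor joins obligatory GluN1 subunits, encoded by GRIN1, with GluN2 subunits (GRIN2A to GRIN2D) or GluN3 subunits (GRIN3A, GRIN3B), and the GluN2 type sets how long the channel stays open and which signalling proteins it binds. GluN2B prevails in the cortex early in life and GluN2A after birth, and ethanol inhibits these channels at intoxicating concentrations, which is why their subunit mix is often followed in studies of drinking.

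GRIN1 was the most abundant member in every library, at a median of 201 TPM before and 213 TPM after (n = 16 each), and its lowest library of 87.9 TPM lay above the highest GRIN2A library of 50.1 TPM. GRIN2A was next, with a median of 23.1 TPM before and 32.6 TPM after, and it exceeded each of the other GRIN2 genes and GRIN3A in all 16 libraries of either time. Before, the order went on with GRIN2C (6.46 TPM), GRIN3A (4.09 TPM), GRIN2D (2.39 TPM) and GRIN2B (1.35 TPM). The ranges of these 4 overlapped between neighbours, and GRIN2D exceeded GRIN2B in 13 of 16 libraries. After, GRIN3A (4.97 TPM) and GRIN2C (4.81 TPM) lay side by side, and GRIN2B (2.12 TPM) and GRIN2D (1.86 TPM) could not be ordered, with GRIN2B higher in 9 of 16 libraries. The comparison of levels between genes rests on the gene lengths used by the authors. The lengths implied by the TPM values were 0.326 times that of GRIN2A for GRIN2B, 0.509 for GRIN2C and 0.185 for GRIN2D, so the shorter gene models gave fewer reads per TPM.

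**Figure D1:**
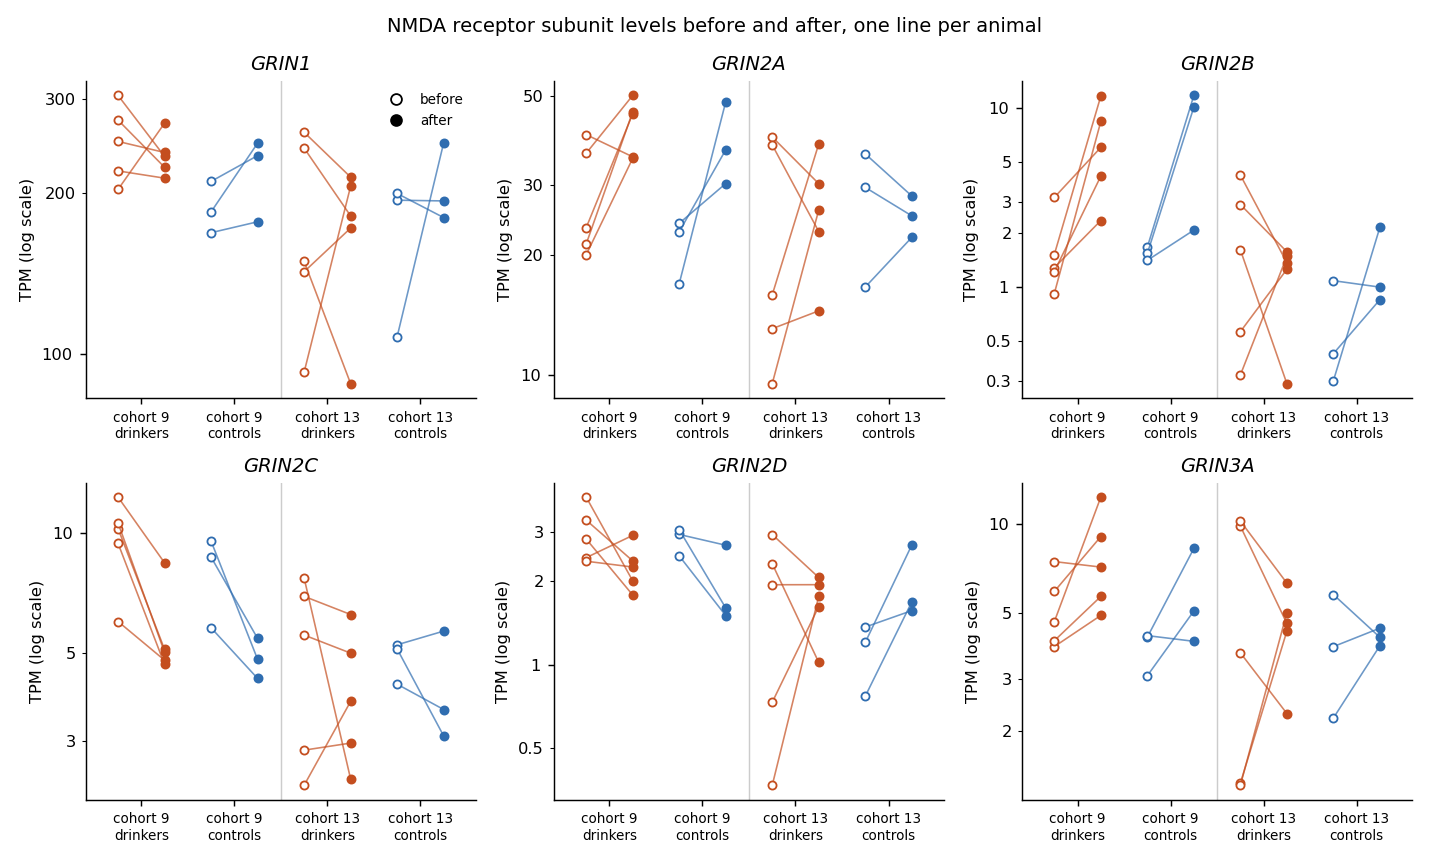
TPM on a log scale of the 6 subunit genes, each line joining the first biopsy (open) and the second (filled) of 1 animal, with drinkers in orange and controls in blue. GRIN2B was higher after in all 8 animals of cohort 9 and in 4 of 8 of cohort 13, and GRIN2C was lower after in all 8 animals of cohort 9 and in 5 of 8 of cohort 13.

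Whole reads were recovered from the TPM values, about 12473000 to 38248795 per library. The medians were 15594211 reads before and 15707430 after in cohort 9, and 32143198 and 36094364 in cohort 13. Within cohort 13 the first biopsy of drinker 3 (about 14392600 reads) and the second of drinker 1 (about 16965900 reads) held the fewest. GRIN2B and GRIN2D were measured with few reads, 17 to 545 and 11 to 155 per library. For GRIN2B the 17 reads of the second biopsy of drinker 1 of cohort 13 gave 0.29 TPM with an exact Poisson 95% interval of 0.169 to 0.464 TPM, which covers counting error only. Transcripts of the 13 mitochondrial genes made up 41.7% ± 9.73 of all TPM before and 36.5% ± 5.2 after (SD, n = 16), and the median change of all tested genes was a log2 value of 0.17. Changes are therefore given as deposited and also with every library set to a common median, which lowered each change over all animals by 0.21.

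Over all 16 animals GRIN2A and GRIN2B rose and GRIN2C fell after the drinking period, while GRIN1, GRIN2D and GRIN3A did not pass the test. The calls are those of limma, fitted across all genes on log2(TPM + 1) with the animal as a block and adjusted by Benjamini-Hochberg. Of all 15324 genes 36.6% were called in this comparison, 32.9% higher and 3.69% lower. With every library set to a common median the balance turned to 9.7% of all genes higher and 17.1% lower, and GRIN2C alone of the 6 members was called. The difference between the drinkers' and the controls' change passed the test for none of the 6 genes.

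GRIN1, the subunit every NMDA receptor carries, had medians of 231 TPM before and 213 TPM after in drinkers (n = 10 each), with ranges of 92.4 to 304 TPM and 87.9 to 270 TPM. In the 6 controls the medians were 189 TPM before and 214 TPM after, with ranges of 108 to 210 TPM and 177 to 248 TPM. The groups overlapped at both times, and 7 of 16 animals were higher after. The largest log2 ratios between an animal's biopsies were in cohort 13, where control 1 went from 108 to 248 TPM, drinker 3 from 92.4 to 206 TPM and drinker 1 from 149 to 87.9 TPM. The fitted change was 0.08 ± 0.12 (SE, limma adjusted p = 0.616) over all animals and -0.13 with a common median. It was -0.04 ± 0.15 in drinkers and 0.28 ± 0.19 in controls, and with a common median -0.30 (limma adjusted p = 0.07) and 0.14. The drinkers' change minus the controls' was -0.32 with a 95% interval of -0.84 to 0.19 (limma adjusted p = 0.665), and -0.45 with a common median.

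GRIN2A encodes the subunit that gives receptors fast closing kinetics and prevails in the mature cortex. In drinkers of cohort 9 it went from 20.0 to 34.9 TPM in drinker 1, from 23.4 to 45.1 TPM in drinker 2, from 21.3 to 45.6 TPM in drinker 3, from 35.9 to 50.1 TPM in drinker 4 and from 40.0 to 35.2 TPM in drinker 5. Among its controls it went from 17.0 to 48.3 TPM in control 1, from 22.9 to 36.7 TPM in control 2 and from 24.0 to 30.2 TPM in control 3. So 7 of 8 animals of cohort 9 were higher after. In its 3 controls the times did not overlap, as for 31.8% of all genes, 29.1% higher and 2.64% lower after. GRIN2A in drinkers of cohort 13 went from 13.1 to 14.5 TPM in drinker 1, from 9.54 to 25.9 TPM in drinker 2, from 15.9 to 37.9 TPM in drinker 3, from 39.5 to 30.2 TPM in drinker 4 and from 37.7 to 22.9 TPM in drinker 5. Among their controls it went from 16.6 to 22.1 TPM in control 1, from 29.5 to 25.1 TPM in control 2 and from 35.8 to 28.1 TPM in control 3. Here 4 of 8 animals were higher after, and the first biopsies spanned 9.54 to 39.5 TPM, wider than the second.

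The fitted change of GRIN2A was 0.43 ± 0.15 (SE, limma adjusted p = 0.0317) over all animals, with 11 of 16 higher, and 0.22 (adjusted p = 0.114) with a common median. The call was lost when control 1 or 2 or drinker 1, 2 or 3 of cohort 9, or drinker 2 or 3 of cohort 13, was left out, with adjusted p up to 0.0698. It was also lost with no filter on level (adjusted p = 0.0673), without the block (0.0528), with pairs of the same RNA code (0.0892) and with limma-voom on the recovered reads (0.0727). In drinkers the change was 0.47 ± 0.19 (adjusted p = 0.0665) and in controls 0.38 ± 0.25 (adjusted p = 0.526). The drinkers' change minus the controls' was 0.09 with a 95% interval of -0.57 to 0.75, and -0.032 with a common median. In cohort 9 GRIN2A rose by 0.68 ± 0.20 (limma adjusted p = 0.0166), and by 0.41 with a common median (adjusted p = 0.0274), and without control 1 the first of these was not called (0.57, adjusted p = 0.0593). In cohort 13 the value was 0.18, and the cohort 13 change minus the cohort 9 change was -0.50 with a 95% interval of -1.10 to 0.10 (adjusted p = 0.661).

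GRIN2B encodes the subunit that gives slower closing and binds the kinase CaMKII. In drinkers of cohort 9 it went from 1.28 to 2.35 TPM in drinker 1, from 1.22 to 4.16 TPM in drinker 2, from 1.52 to 11.6 TPM in drinker 3, from 0.921 to 8.40 TPM in drinker 4 and from 3.17 to 6.02 TPM in drinker 5. Among its controls it went from 1.67 to 11.7 TPM in control 1, from 1.54 to 10.1 TPM in control 2 and from 1.41 to 2.08 TPM in control 3. All 8 animals were higher after, drinkers and controls alike, by log2 ratios of TPM from 0.56 to 3.19. Nothing was added to the TPM in these ratios. The fitted changes given next are on log2(TPM + 1), which understates changes at such low levels. In this cohort the times overlapped only through drinker 5 before. GRIN2B in drinkers of cohort 13 went from 1.62 to 0.29 TPM in drinker 1, from 0.564 to 1.26 TPM in drinker 2, from 0.323 to 1.49 TPM in drinker 3, from 2.89 to 1.58 TPM in drinker 4 and from 4.22 to 1.37 TPM in drinker 5. Among their controls it went from 0.3 to 2.16 TPM in control 1, from 0.426 to 0.852 TPM in control 2 and from 1.09 to 1.0 TPM in control 3. Of these 8 animals 4 were higher and 4 lower after, and the 2 largest increases, in control 1 and drinker 3, started from the 2 lowest first biopsies.

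The fitted change of GRIN2B was 0.76 ± 0.24 (SE, limma adjusted p = 0.0223) over all animals, with 12 of 16 higher, and 0.55 (adjusted p = 0.0697) with a common median. On the deposited scale the call held with any single animal left out, and with no filter on level the adjusted p was 0.0562. In drinkers the value was 0.58 ± 0.31 (adjusted p = 0.144) and in controls 1.05 ± 0.40 (adjusted p = 0.288), and the drinkers' change minus the controls' was -0.47 with a 95% interval of -1.52 to 0.58. In cohort 9 GRIN2B rose by 1.48 ± 0.27 (limma adjusted p = 0.00195), the largest fitted change of the 6 genes in either cohort, and by 1.21 with a common median (adjusted p = 0.00186). In cohort 13 the value was 0.03, and -0.12 with a common median. The cohort 13 change minus the cohort 9 change was -1.45 with a 95% interval of -2.24 to -0.66, an unadjusted p of 0.00104 and an adjusted p of 0.359 in limma, so the difference between cohorts did not pass over all genes. In that comparison limma and limma-voom called 0 of the 6 members, and 3 (GRIN2B, GRIN2C and GRIN2D) had an unadjusted limma p under 0.05, as did 7.49% of all genes. The share of all genes called was 0.0131%.

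GRIN2C encodes a subunit with weak magnesium block that in rodent cortex is found mainly in astrocytes. In drinkers of cohort 9 it went from 9.41 to 4.68 TPM in drinker 1, from 10.3 to 5.10 TPM in drinker 2, from 6.0 to 4.79 TPM in drinker 3, from 12.3 to 8.41 TPM in drinker 4 and from 10.6 to 5.02 TPM in drinker 5. Among its controls it went from 9.54 to 4.82 TPM in control 1, from 5.78 to 4.32 TPM in control 2 and from 8.69 to 5.44 TPM in control 3. All 8 animals were lower after. In the 3 controls the times did not overlap, beside 31.8% of all genes, 29.1% higher and 2.64% lower after. GRIN2C in drinkers of cohort 13 went from 7.71 to 2.41 TPM in drinker 1, from 2.85 to 2.97 TPM in drinker 2, from 2.33 to 3.78 TPM in drinker 3, from 5.54 to 4.99 TPM in drinker 4 and from 6.93 to 6.24 TPM in drinker 5. Among their controls it went from 5.24 to 5.67 TPM in control 1, from 4.17 to 3.61 TPM in control 2 and from 5.12 to 3.10 TPM in control 3. Of these 8 animals 5 were lower after, and the times overlapped in drinkers and controls.

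GRIN2C fell by 0.44 ± 0.12 on the log2 scale (SE, limma adjusted p = 0.00932) over all animals, with 13 of 16 lower, and by 0.65 (adjusted p = 0.00115) with a common median. It was called without any single animal. It was also the only member called in drinkers, where it fell by 0.45 ± 0.15 (limma adjusted p = 0.0251) beside 35.9% of all genes called, 32.7% higher and 3.23% lower. It fell by 0.71 in drinkers with a common median (adjusted p = 0.00471), beside 12.1% of all genes higher and 19.4% lower. The call on the deposited scale was lost without drinker 1, 2 or 5 of cohort 9 or drinker 1 of cohort 13, with adjusted p up to 0.068. It was also lost without the block, with no filter on level and with pairs of the same RNA code. GRIN2A was called in drinkers without control 1 or drinker 5 of cohort 9 or drinker 4 or 5 of cohort 13, and GRIN2B without drinker 5 of cohort 13. The drinkers' and controls' changes come from 1 fit with a shared spread, so leaving out a control alters the drinkers' adjusted p. In controls the value was -0.41 ± 0.19 (adjusted p = 0.384), where limma and limma-voom called 0 of 6 members, beside 0.3% of all genes, 0.248% higher and 0.0522% lower. At an unadjusted limma p under 0.05 there were 2 members, GRIN2B and GRIN2C, and 12.8% of all genes. The drinkers' change minus the controls' was -0.04 with a 95% interval of -0.55 to 0.46. In cohort 9 GRIN2C fell by 0.66 ± 0.15 (limma adjusted p = 0.0056), and in cohort 13 the value was -0.21.

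**Figure D2:**
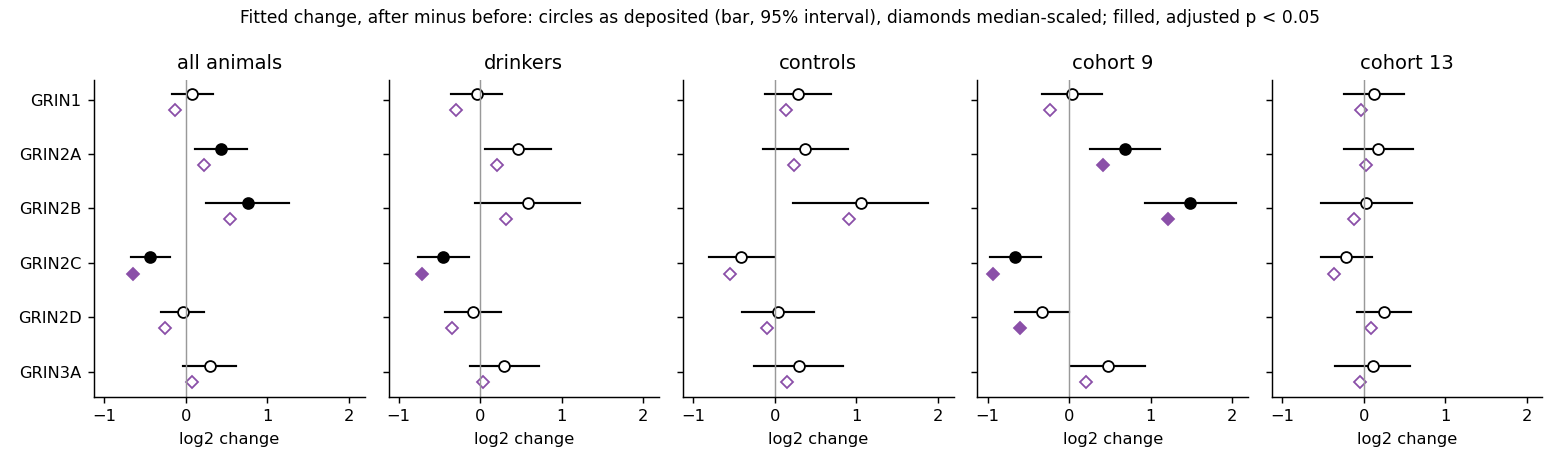
Fitted log2 change, after minus before, of the 6 genes in 5 comparisons, with circles for the deposited scale (bars, 95% intervals) and diamonds for a common median per library; filled symbols have an adjusted p below 0.05. GRIN2C is called on both scales in all animals, in drinkers and in cohort 9, GRIN2B and GRIN2A on both in cohort 9, GRIN2D there with a common median only, GRIN2A and GRIN2B in all animals on the deposited scale only, and no gene in controls or in cohort 13.

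GRIN2D encodes the subunit with the slowest closing, which in rodent cortex is found mainly in interneurons. Its medians were 2.39 TPM before (range 0.368 to 4.01 TPM) and 1.86 TPM after (range 1.02 to 2.92 TPM) over 16 animals, and 7 of 16 were higher after. The cohorts went apart, with 7 of 8 animals lower after in cohort 9 and 6 of 8 higher after in cohort 13. The fitted change was -0.04 ± 0.13 (limma adjusted p = 0.824) over all animals. It was -0.33 (adjusted p = 0.109) in cohort 9, where a common median gave -0.60 (adjusted p = 0.00532), and 0.25 in cohort 13. The difference between cohorts was 0.58 with a 95% interval of 0.11 to 1.04, and its adjusted p of 0.634 missed the threshold. Limma-voom on the recovered reads called GRIN2D lower in cohort 9 (-0.69, adjusted p = 0.0374).

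GRIN3A encodes a subunit that lowers calcium entry and magnesium block of the receptors it joins. It lay between 1.30 and 10.3 TPM before and between 2.28 and 12.4 TPM after, with medians of 4.09 and 4.97 TPM, and 10 of 16 animals were higher after. The fitted change was 0.29 ± 0.16 (limma adjusted p = 0.142) over all animals and 0.08 with a common median. It was 0.29 in drinkers and 0.29 in controls, and the 95% interval of their difference reached from -0.69 to 0.69. The lowest pair and the highest pair of first biopsies were all of cohort 13 drinkers, 1.30 and 1.32 TPM in drinkers 3 and 2 and 9.87 and 10.3 TPM in drinkers 4 and 5.

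Taken by cohort, 3 of 6 members were called in cohort 9 beside 35.2% of all genes, 30.5% higher and 4.69% lower. There were 4 called with a common median, GRIN2D being the fourth, beside 11.8% of all genes higher and 18.3% lower. In cohort 13 limma called 0 of 6 members, and 0 of them had an unadjusted p under 0.05 (14.0% of all genes did), beside 1.07% of all genes called, 1.02% higher and 0.0522% lower, and limma-voom on the recovered reads also called 0. Split further by kind of animal, GRIN2B rose by 1.43 (limma adjusted p = 0.0196) and GRIN2C fell by 0.69 (adjusted p = 0.0317) in the 5 drinkers of cohort 9, where 17.7% of all genes were called, 14.8% higher and 2.96% lower. On the common median scale GRIN2D was called lower too (-0.55), beside 7.11% of all genes higher and 11.6% lower. The calls of GRIN2B and GRIN2C on the deposited scale were lost without drinker 2, 3 or 4, and that of GRIN2C also without drinker 1 or 5. In the 3 controls of cohort 9 limma called 0 members, beside 0.0848% of all genes, 0.0261% higher and 0.0587% lower. At an unadjusted p under 0.05 there were 3 members, GRIN2A, GRIN2B and GRIN2C, and 17.0% of all genes. The same 3 did not overlap between the times in these controls, as was the case for 31.8% of all genes, 29.1% higher and 2.64% lower after. In cohort 13 limma called 0 members in the drinkers, beside 0.633% of all genes, and 0 in the controls, beside 0.00653%, with 0 members at an unadjusted p under 0.05 in either, against 24.6% and 4.5% of all genes. Limma-voom called 0 members in these 3 sets as well. The cohorts differ in RNA code in the sample titles and in depth, and these cannot be told apart from the cohort.

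The test of the difference itself, the drinkers' change minus the controls', called 0 of the 6 members and 0 of 15324 genes with limma, with 0 members and 1036 genes at an unadjusted p under 0.05, and limma-voom on the recovered reads also called 0. The share called was 0% of all genes. Between animals, limma called 0 of 6 members and 0 of 15225 genes (0%) for drinkers against controls in first biopsies, with 0 members and 215 genes at an unadjusted p under 0.05. In second biopsies limma called 0 of 6 members and 0 of 15309 genes (0%), with 0 members and 1086 genes at an unadjusted p under 0.05. Limma-voom called 0 genes in both.

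The cohorts also differed in their first biopsies. In first biopsies GRIN2C lay between 5.78 and 12.3 TPM (median 9.47 TPM, n = 8) in cohort 9 and between 2.33 and 7.71 TPM (median 5.18 TPM, n = 8) in cohort 13. GRIN2D lay between 2.36 and 4.01 TPM (median 2.89 TPM) in cohort 9 and between 0.368 and 2.94 TPM (median 1.28 TPM) in cohort 13. Both were lower in cohort 13 and their ranges overlapped, with log2 differences of -0.78 ± 0.21 (SE, limma adjusted p = 0.0166) for GRIN2C and -0.75 ± 0.19 (adjusted p = 0.0139) for GRIN2D. These were 2 of 6 members called, beside 16.4% of all genes, 4.45% higher and 12% lower, and 0 of 6 members were called with composition covariates. GRIN1 was called lower as well with a common median (-0.35, adjusted p = 0.0403), which makes 3 of 6 members, beside 20.3% of all genes higher and 13.7% lower. After, GRIN2C had medians of 4.92 TPM in cohort 9 and 3.69 TPM in cohort 13, and GRIN2D of 2.12 and 1.72 TPM.

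The mix of the 4 GRIN2 genes shows these movements within each library. Like the levels, the shares rest on the gene lengths used by the authors. GRIN2A made up 69.6% ± 9.72 (SD, n = 16) of their summed TPM before and 76.1% ± 5.11 after, GRIN2B 4.03% ± 2.02 and 7.91% ± 5.93, GRIN2C 20.2% ± 6.81 and 11.3% ± 3.51, and GRIN2D 6.17% ± 2.74 and 4.71% ± 1.33. In cohort 9 the GRIN2B share went from 4.13% ± 1.28 to 12.1% ± 5.68 (n = 8) and the GRIN2C share from 23.4% ± 4.65 to 9.85% ± 2.35. In cohort 13 the GRIN2B share stood at 3.92% ± 2.66 and 3.69% ± 1.53, and the GRIN2C share at 16.9% ± 7.30 and 12.7% ± 4.03. The spread of the GRIN2A share between animals was smaller after than before, from 53.0% to 84.0% before and from 69.7% to 84.4% after.

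**Figure D3:**
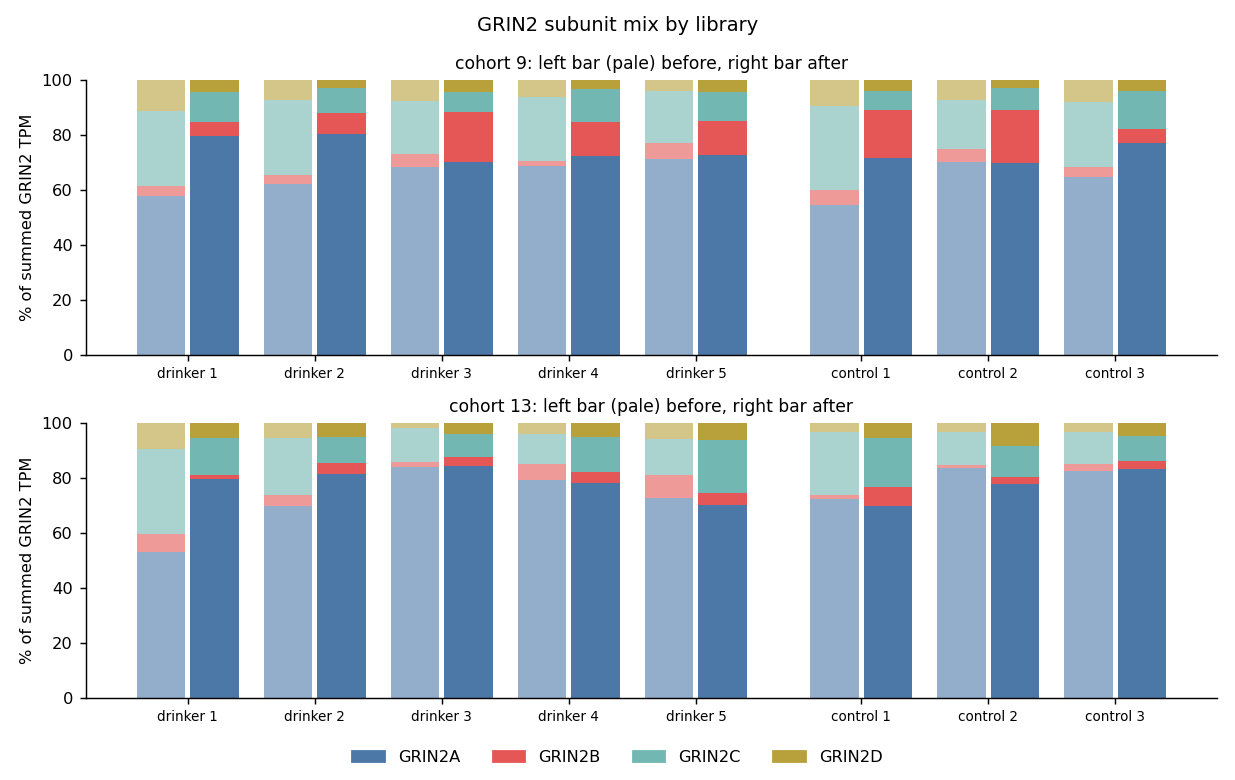
Share of each GRIN2 gene in the summed GRIN2 TPM, in percent, for every library, with the first biopsy pale on the left and the second on the right for each animal. In cohort 9 the GRIN2C share of 17.7% to 30.6% before gave way to 7.13% to 13.8% after, with no overlap, and the GRIN2B share reached 19.2%.

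The level of the GRIN2A to GRIN2B ratio rests on the gene lengths used by the authors, 0.326 for GRIN2B relative to GRIN2A. The ratio of an animal does not depend on how a library is scaled. Among drinkers of cohort 9 it went from 15.6 to 14.8 in drinker 1, from 19.2 to 10.8 in drinker 2, from 14.0 to 3.92 in drinker 3, from 39.0 to 5.97 in drinker 4 and from 12.6 to 5.85 in drinker 5. Among its controls it went from 10.1 to 4.12 in control 1, from 14.8 to 3.63 in control 2 and from 17.0 to 14.5 in control 3. The ratio was lower after in all 8 animals of this cohort, with a geometric mean of 16.4 before and 6.84 after. Among controls of cohort 13 it was also lower in all 3 animals, from 55.4 to 10.3 in control 1, from 69.4 to 29.4 in control 2 and from 33.0 to 28.1 in control 3. Among drinkers of cohort 13 it went from 8.10 to 50.1 in drinker 1, from 16.9 to 20.6 in drinker 2, from 49.2 to 25.5 in drinker 3, from 13.7 to 19.2 in drinker 4 and from 8.93 to 16.7 in drinker 5. Here 4 of 5 animals were higher after, the opposite way to the other 3 sets of animals, and drinker 1 rests on 17 reads of GRIN2B after. Drinkers 1 and 2 and control 1 of cohort 13 are the 3 animals whose biopsies carry different RNA codes in the sample titles. Of the other drinkers there, drinkers 4 and 5 were higher after and drinker 3 lower.

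**Figure D4:**
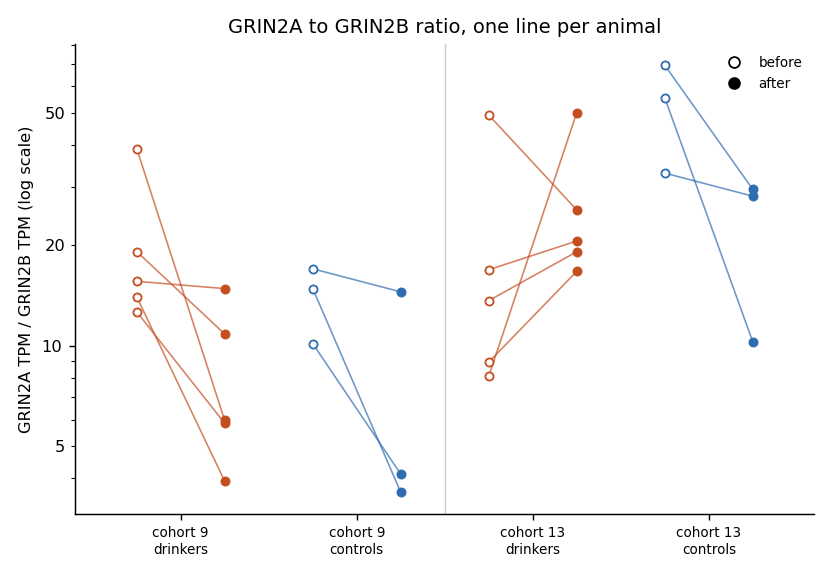
GRIN2A TPM divided by GRIN2B TPM on a log scale, each line joining the first (open) and second biopsy (filled) of 1 animal. The ratio is lower after in all 8 animals of cohort 9 and in the 3 controls of cohort 13, and higher in 4 of the 5 drinkers of cohort 13.

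The mean log2 change of the ratio was -1.26 ± 0.90 (SD, n = 8) in cohort 9, with an exact two-sided sign-flip p of 0.00781, the smallest that 8 animals allow, and an adjusted p of 0.0547 over the 7 tests of the ratio. In controls it was -1.24 ± 0.90 (n = 6, 6 of 6 lower), with an exact p of 0.0313, again the smallest possible, and an adjusted p of 0.109. In drinkers it was -0.32 ± 1.51 (n = 10, 6 lower and 4 higher, exact adjusted p = 0.597). In cohort 13 it was -0.07 ± 1.53 (n = 8, 4 lower and 4 higher, exact adjusted p = 0.906). Over all 16 animals it was -0.67 ± 1.36 (12 of 16 lower, exact adjusted p = 0.133). The drinkers' mean change exceeded the controls' by 0.92 (exact permutation test, adjusted p = 0.28), and the change of cohort 13 exceeded that of cohort 9 by 1.2 (exact permutation test, adjusted p = 0.133). None of the 7 tests over all pairs passed the adjusted threshold. Without drinker 1 of cohort 13 the change was -0.89 over all animals and -1.26 in cohort 9, each with an exact adjusted p of 0.0273. With pairs of the same RNA code only, it was -0.86 over all animals and -1.26 in cohort 9 (exact adjusted p = 0.041 for each), -0.76 in drinkers (exact adjusted p = 0.164) and -0.20 in cohort 13 (exact adjusted p = 0.695). The drinkers' mean change then exceeded the controls' by 0.24 (exact permutation test, adjusted p = 0.695). Neither of these settings alters the 8 animals of cohort 9 or their exact sign-flip p of 0.00781. The adjusted p of cohort 9 fell there only through the other tests of the ratio.

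The libraries held the marker genes of cortical neurons in every sample, and their levels differed between the times. Of 7 general neuron markers 6 were higher after over all animals and 0 lower (median log2 change 0.54, against 0.17 for all genes), 6 of 9 excitatory markers and 6 of 8 inhibitory markers were higher, and all 8 microglial markers were lower (median -0.35). Of 6 oligodendrocyte markers 1 was higher, of 4 blood markers 3 were lower, and of 5 markers each of oligodendrocyte precursors and endothelium 0 were called. These counts stand beside 32.9% of all genes called higher and 3.69% lower. With a common median 5 general, 5 excitatory and 2 inhibitory neuron markers were called higher and 1 excitatory one lower. On that scale 8 microglial, 3 blood, 3 endothelial, 2 precursor and 2 astrocyte markers were lower, and 0 markers of these types or of oligodendrocytes were higher. Of all genes 9.7% were called higher and 17.1% lower with a common median. In drinkers on that scale 5 of 9 excitatory markers were higher and 3 lower, and 4 of 7 general ones were higher and 0 lower. These stand beside 12.1% of all genes higher and 19.4% lower. The mean log2 change of the 7 general neuron markers was 0.76 ± 0.37 (SD, n = 8) in cohort 9, higher in 8 of 8 animals, and 0.26 ± 0.66 in cohort 13, higher in 4 of 8. Their summed TPM spanned 1855 to 7617 before and 3317 to 6811 after. Of 7 astrocyte markers 1 was higher (GFAP, 0.39) and 1 lower (ALDH1L1, -0.23), both named after their values were seen, and their summed TPM spanned 1371 to 3533 before and 2042 to 3340 after. In bulk tissue fewer cells of a type and less RNA per cell cannot be told apart. The relation of the members' changes to marker levels is given next, but whether the cell mix caused these changes was not tested.

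Over the 16 animals the median-scaled change of GRIN2A followed that of the 7 general neuron markers, with Pearson's r = 0.89 (permutation p = 2e-05, adjusted p = 0.00042 over 21 relations). Spearman's rho was 0.89 (permutation p = 2e-05). Without the 2 animals farthest from the median marker change r was 0.86, and it was 0.84 within cohort 9 and 0.87 within cohort 13. GRIN2C went the opposite way, with r = -0.65 (permutation adjusted p = 0.0228) and rho = -0.62 (adjusted p = 0.0439), r = -0.50 without the 2 farthest animals, -0.43 within cohort 9 and -0.49 within cohort 13. For GRIN2B r was 0.44 (permutation adjusted p = 0.18) and rho 0.31 (adjusted p = 0.402), with r = 0.18 without the 2 farthest animals, -0.16 within cohort 9 and 0.20 within cohort 13. For GRIN2D r was -0.56 and rho -0.52 (permutation adjusted p = 0.0571 and 0.107), for GRIN3A 0.50 and 0.41 (0.0991 and 0.253), and for GRIN1 -0.071 and -0.085 (0.797 and 0.818). With the mean marker levels of neurons, astrocytes and oligodendrocytes as covariates, 0 members and 236 genes were called over all animals, GRIN2A had a value of -0.15 (adjusted p = 0.322), GRIN2B of 0.19 (adjusted p = 0.812) and GRIN2C of -0.43 (adjusted p = 0.126). In cohort 9 the same covariates left 0 members called, with values of -0.10 for GRIN2A, 0.89 for GRIN2B and -0.64 for GRIN2C (limma adjusted p = 0.742, 0.439 and 0.31).

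**Figure D5:**
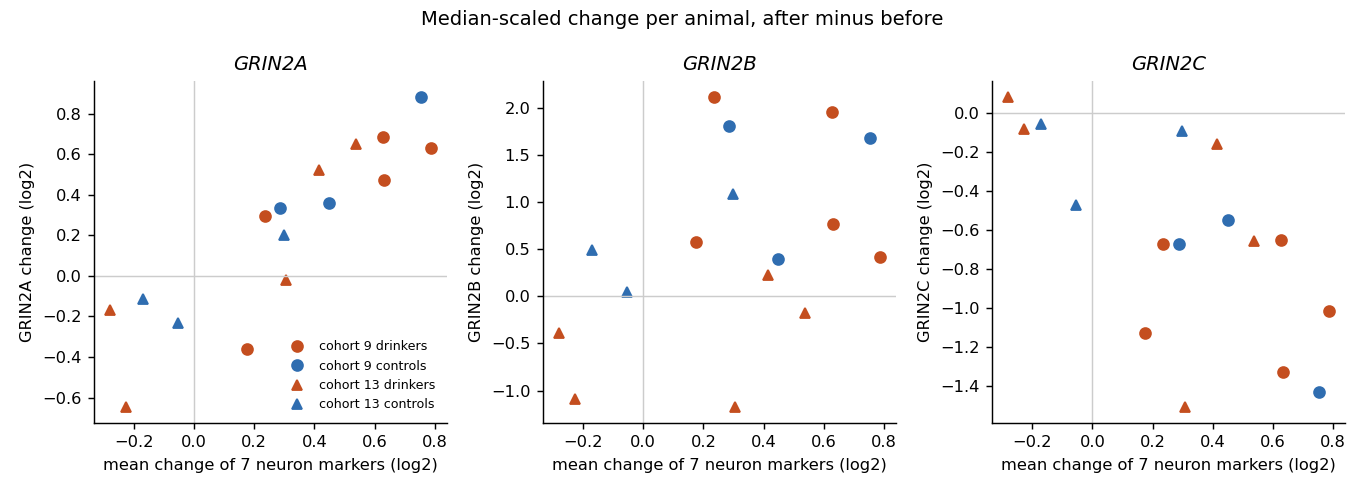
Median-scaled log2 change per animal of GRIN2A, GRIN2B and GRIN2C on the y axes against the mean change of 7 neuron markers on the x axes, circles for cohort 9 and triangles for cohort 13, orange for drinkers and blue for controls. GRIN2A lies along a rising line (r = 0.89), GRIN2B scatters more (r = 0.44), and GRIN2C falls (r = -0.65).

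Among the members the changes per animal of GRIN2C and GRIN2D were most alike, with r = 0.77 and rho = 0.78 (permutation adjusted p = 0.00598 and 0.00651), r = 0.74 without the 2 farthest animals, but r = 0.29 within cohort 9 and 0.76 within cohort 13. In each pair the 2 farthest animals are those farthest from the median change of the first-named gene. Animals far out only in the second gene were kept. GRIN2B and GRIN3A had r = 0.68 and rho = 0.60 (permutation adjusted p = 0.0228 and 0.0474), r = 0.61 without the 2 farthest, and r = 0.72 and 0.73 within cohorts 9 and 13. GRIN2A and GRIN3A had r = 0.66 and rho = 0.64 (permutation adjusted p = 0.0228 and 0.0402), r = 0.57 without the 2 farthest, and r = 0.39 and 0.77 within the cohorts. GRIN1 went with GRIN2D at r = 0.65 and rho = 0.66 (permutation adjusted p = 0.0228 and 0.0402), r = 0.56 without the 2 farthest, and 0.38 and 0.75 within the cohorts. It went with GRIN2C at r = 0.62 and rho = 0.64 (permutation adjusted p = 0.0228 and 0.0402), r = 0.48 without the 2 farthest, and 0.44 and 0.67 within the cohorts. The other 10 pairs of members did not pass, among them GRIN2A and GRIN2B with r = 0.56 and rho = 0.41 (permutation adjusted p = 0.0571 and 0.253).

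Of all 15324 genes, those whose median-scaled change over the 16 animals was most like that of GRIN1 included CLUH and ADGRL1 (each r = 0.98). For GRIN2A they were PAFAH1B1, ADAM22 and CNTNAP2 (each r = 0.94), and for GRIN2B XYLB (r = 0.93), KSR2 (0.92) and C5H4orf50 (0.91). For GRIN2C they were MFGE8 (r = 0.96), HES4 and HEYL (each 0.94), for GRIN2D LOC107130745 (r = 0.90), LOC102116356 and PPM1F (each 0.88), and for GRIN3A ARL10 (r = 0.94), KCNQ3 (0.93) and USP4 (0.91). They were picked as the highest of all genes, so these values are a description.

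Of 14 genes for scaffolds and trafficking of NMDA receptors 5 were higher and 1 lower over all animals (median log2 change 0.22, against 0.17 for all genes), beside 32.9% of all genes higher and 3.69% lower, so the list's 5 of 14 lies near the share of all genes. The higher ones included LIN7A (0.49 ± 0.14, limma adjusted p = 0.0151), DLG1, which encodes SAP97 (0.41 ± 0.14), and LIN7C (0.40 ± 0.14). SHANK3, a postsynaptic scaffold, was lower (-0.35 ± 0.12, adjusted p = 0.0239), and DLG4, which encodes PSD-95, had a value of -0.11 ± 0.11 (adjusted p = 0.444). With a common median the list turned to 1 higher, LIN7A, and 4 lower, SHANK3 and DLG4 among them, and DLG1 and LIN7C had values of 0.19 and 0.18. On that scale 9.7% of all genes were higher and 17.1% lower. In drinkers 3 were higher and 1 lower, beside 32.7% and 3.23% of all genes, and in controls 0, beside 0.3% of all genes called.

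Of 16 genes for kinases, phosphatases and signalling 5 were higher and 0 lower (median 0.14, against 0.17 for all genes), again near the 32.9% of all genes. Among them were CAMK2D (0.49 ± 0.17, limma adjusted p = 0.0312), PPP3CB and PPP3CA, which encode calcineurin catalytic subunits (each 0.37), and CSNK2A1, a casein kinase subunit that phosphorylates GluN2B (0.32 ± 0.11). CAMK2A, the main postsynaptic CaMKII subunit, had a value of -0.17 ± 0.11 (adjusted p = 0.203). With a common median 0 were higher and 1, CAMK2A, was lower, beside 9.7% of all genes higher and 17.1% lower. Of 12 genes for co-agonist supply and glutamate uptake 10 were tested and 1 was higher and 0 lower (median 0.06, against 0.17 for all genes), SLC1A1, a neuronal glutamate transporter (0.37 ± 0.11, limma adjusted p = 0.0173). SRR, which makes D-serine, had a value of 0.24 (adjusted p = 0.0681), and SLC1A2, the main astrocytic glutamate transporter, of 0.29 (adjusted p = 0.369). With a common median 0 were higher and 4 lower, beside the same 9.7% and 17.1% of all genes. In drinkers 4 of 16 and 2 of 10 genes of these lists were higher and 0 lower, beside 32.7% and 3.23% of all genes. In controls 0 were called, beside 0.3% of all genes. The drinkers' change differed from the controls' for 0 genes of the 3 lists, beside 0% of all genes.

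In the authors' deposited table GRIN2C had a log2 fold change of -0.77 in drinkers (FDR 0.000263) and -0.62 in controls (FDR 0.121), the only member at an FDR below 0.05 in either. GRIN2B stood at 0.61 in drinkers (FDR 0.28) and 1.5 in controls (FDR 0.156), and GRIN2A at 0.24 in each (FDR 0.191 and 0.622), per the authors' deposited table. For GRIN1 the authors' deposited table gives -0.29 in drinkers (FDR 0.0518) and 0.14 in controls (FDR 0.787). These fold changes come from the authors' own comparison and not from the limma fits on log2(TPM + 1), so their sizes are not directly comparable.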

How the data were processed

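RNA from biopsies of prefrontal area 46 was made into unstranded, poly-A selected, single-end libraries on a HiSeq instrument, per the labels. STAR 2.5.2b, HTSeq 0.6.1p1 and DESeq2 are named in the submitters' processing notes, which give no genome build. The deposited table holds TPM values per library, made by the authors from gene counts. It also holds the authors' own log2 fold changes of the second over the first biopsy in drinkers and in controls, with a p-value and an FDR for each.

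TPM values gave whole reads for 29427 of 29437 genes above 0 in 2 or more libraries (tolerance 1e-06), about 12473000 to 38248795 per library. Genes with a mean of at least 1 TPM were tested on log2(TPM + 1), a scale that understates changes of low genes, with limma 3.58.1 (R 4.3.3) with trend, and called at a Benjamini-Hochberg adjusted p below 0.05 over all genes tested. Comparisons within animals had the animal as a block. The block comes from the animal number in the sample titles. The deviations of an animal's biopsies from the mean of all animals at each time correlated with a median of 0.52 (-0.06 to 0.70, above 0.1 in 14 of 16 animals). Between different animals the median was -0.05. Differences between the cohorts enter these values. For 9 of 16 animals the first biopsy correlated best with the animal's own second biopsy. The GRIN2A to GRIN2B ratio was tested with exact sign-flip and permutation tests, two-sided, in Python 3.11.15. Relations between changes per animal used 100000 permutations. The p-values rest on the spread between animals. In limma that spread was shared over all animals of a fit and moderated over genes. So the limma p-values of drinkers, controls, a cohort or a set within a cohort also use the spread of the other animals.

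Members, partner lists and marker lists were chosen with earlier results of these data known. Besides the members, the text names for each member the 3 genes with the most similar change, and of each partner list up to 4 called genes with the largest change plus DLG4, CAMK2A, SRR and SLC1A2. One gene named by this rule is not reported here. Alternatives were a common median per library, pseudocount 0.1, no filter on level, no block, composition covariates, only pairs with the same RNA code in the titles, limma-voom on recovered reads and leaving out each animal. Leaving out drinkers 1 and 3 of cohort 13, each with a shallow library, was added after the depths were seen. All 6 members matched RefSeq symbols. The fits were tested on simulated data.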

Additional observations from a re-analysis of the deposited data

Results flagged for a closer look

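In 114 groups of 4 to 10 samples, 6 had a sample far from the rest (about 1 in 20 groups would by chance), and these came from 4 libraries. Before, the GRIN2B level of 3.17 TPM in drinker 5 stood above the other animals of cohort 9, both among all 8 and among the 5 drinkers. After, the GRIN2B level of 0.29 TPM in drinker 1, from 17 reads, stood below the other cohort 13 drinkers. After, the GRIN2C level of 8.41 TPM in drinker 4 stood above the other animals of cohort 9, among all 8 and among the 5 drinkers. After, the GRIN3A level of 8.29 TPM in control 2 of cohort 9 stood above the other controls.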

How the results depend on the processing

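With a common median per library 1 member was called over all animals, GRIN1 was at -0.13 there, GRIN2D at -0.095 in controls, GRIN2B at -0.12 in cohort 13, and the drinkers' minus the controls' change at -0.032 for GRIN2A and -0.12 for GRIN3A. The same scale called 89 genes in controls, 8 for the difference between cohorts (2 in the main analysis) and 5166 between cohorts in first biopsies. With composition covariates 0 members were called over all animals, in drinkers, in cohort 9, in its drinkers and between cohorts in first biopsies, and 236 genes were called over all animals, 96 in drinkers, 0 for the difference between cohorts and 672 in first biopsies. In that setting values over all animals were -0.13 for GRIN1, -0.15 for GRIN2A and -0.21 for GRIN3A, in drinkers -0.19 for GRIN2A, -0.077 for GRIN2B and -0.35 for GRIN3A, in controls -0.093 for GRIN2A and -0.032 for GRIN3A, for the drinkers' minus the controls' change -0.1 for GRIN2A and -0.32 for GRIN3A, in cohort 9 -0.10 for GRIN2A and in cohort 13 -0.17 for GRIN2A and -0.14 for GRIN2B. Limma-voom called 3586 genes over all animals, 121 in controls, 0 for the difference between cohorts and 4927 in first biopsies, and gave GRIN1 -0.097, GRIN2B in cohort 13 -0.0063 and the drinkers' minus the controls' change of GRIN3A -0.078. With no filter on level 1 member was called over all animals, 0 in drinkers and 1 in cohort 9 drinkers, with 24 genes in controls and 3792 in first biopsies. Without the animal as a replicate block 0 members were called in drinkers and 17 genes in controls. GRIN2A over all animals then had an adjusted p of 0.0528 in limma. The ratio in cohort 9 was -1.26 with an adjusted p of 0.0249 in an exact unpaired permutation test. That p was adjusted without the tests between groups, so it is not on the same footing as that of the paired test. With a pseudocount of 0.1 GRIN2D was at 0.011 over all animals and 0 genes were called for the difference between cohorts, and with a pseudocount of 1 the ratio in cohort 13 was at 0.15.

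With only pairs of the same RNA code 0 members and 1601 genes were called in drinkers, 13 genes in controls and 1 for the difference between cohorts, with GRIN1 at 0.0096 in drinkers, GRIN2D at -0.069 in controls, GRIN2C at 0.11 for the drinkers' minus the controls' change, and GRIN2A at -0.087 and GRIN2B at -0.10 in cohort 13. The ratio was then -0.86 over all animals and -1.26 in cohort 9 (exact adjusted p = 0.0410 each). Without drinkers 1 and 3 of cohort 13 the counts were 3472 genes over all animals, 2339 in drinkers and 0 for the difference between cohorts, GRIN3A was at -0.036 for the drinkers' minus the controls' change, and the ratio was -0.88 over all animals and -1.26 in cohort 9 (exact adjusted p = 0.0453 each). Neither setting alters the animals of cohort 9, whose adjusted p for the ratio fell only through the other tests of the ratio.

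Leaving out 1 animal at a time, 2 to 4 members and 4063 to 6704 genes were called over all animals, 0 to 3 and 3508 to 6900 in drinkers, 0 members and 6 to 69 genes in controls, 2 to 3 members in cohort 9, 0 to 2 in its drinkers, and 1 to 7 genes for the difference between cohorts. GRIN2D ranged from -0.11 to 0.0075 over all animals and from -0.098 to 0.18 in controls, GRIN1 from -0.17 to 0.038 in drinkers and GRIN2B from -0.14 to 0.20 in cohort 13. The drinkers' minus the controls' change ranged from -0.053 to 0.31 for GRIN2A, -0.15 to 0.057 for GRIN2C, -0.27 to 0.010 for GRIN2D and -0.14 to 0.14 for GRIN3A. The ratio ranged from -0.89 to -0.53 over all animals, -1.43 to -1.06 in cohort 9 and -0.45 to 0.27 in cohort 13. The cause of these differences between settings was not tested. Depth limits GRIN2B and GRIN2D most, with 17 and 11 reads in their lowest libraries.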
